A study of Mus musculus with 6 samples.

Results

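The natriuretic peptide system of the heart was described in 6 whole-heart arrays through 7 genes: the peptide precursors Nppa, Nppb and Nppc, the receptors Npr1, Npr2 and Npr3, and the processing enzyme gene Corin. They were taken by gene symbol, which gave 12 of the 45281 probes in the table, 6 of them for Npr3 and 1 for each other gene, among 19057 genes with a probe. The 4 groups were JMJD2A-transgenic hearts after thoracic aortic constriction (TAC, 2 arrays), wild-type hearts after TAC (2 arrays), transgenic hearts after sham surgery (1 array) and wild-type hearts after sham surgery (1 array). TAC is a band around the aorta that makes the left ventricle pump against a higher pressure. All mice were FvB with an age label of 8 weeks, and hearts were taken 3 weeks after surgery; the design text of the series gives the age in years. JMJD2A is a histone demethylase encoded by Kdm4a. The transgene is described as heart-specific. The labels do not name its promoter or its founder lines, nor the sex of the mice, nor do they say whether an array holds 1 animal or a pool. The p-values therefore measure the spread between these arrays, part of which may be technical.

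Atrial natriuretic peptide (from Nppa) and B-type natriuretic peptide (from Nppb) are hormones that heart muscle releases when it is stretched, and both genes belong to the fetal programme that returns in overloaded ventricles. Corin, a membrane protease of heart muscle, cuts the Nppa precursor into its active form, and furin cuts the Nppb precursor. Npr1 and Npr2 are receptors that make cyclic GMP, Npr1 for the Nppa and Nppb peptides and Npr2 for C-type peptide (from Nppc), while Npr3 takes peptides up and clears them.

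The stretches before the starts of Nppa and Nppb are shown because these were the members brighter on every TAC array than on both sham arrays. They are RefSeq sequences of build GRCm38.p6, both on the plus strand, 250 bases ending at the base before the annotated start, and a promoter was found for all 7 members. Nppa lies at chr4:148000472-148000721 and Nppb at chr4:147985650-147985899. Capitals mark 4 motifs. GATAA is the core that GATA factors bind, AAGTG is the core that NKX2-5 binds, and CATTCC is the muscle element of TEAD factors, and these were searched on both strands. TATAAA, the letters of the TATA box, was searched on the strand of the gene. No marked stretch overlaps another.
Nppa: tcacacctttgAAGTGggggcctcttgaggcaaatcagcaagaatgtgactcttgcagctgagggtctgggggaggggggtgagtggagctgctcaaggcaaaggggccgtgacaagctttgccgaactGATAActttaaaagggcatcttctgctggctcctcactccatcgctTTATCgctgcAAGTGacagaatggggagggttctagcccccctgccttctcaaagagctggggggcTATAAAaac
Nppb: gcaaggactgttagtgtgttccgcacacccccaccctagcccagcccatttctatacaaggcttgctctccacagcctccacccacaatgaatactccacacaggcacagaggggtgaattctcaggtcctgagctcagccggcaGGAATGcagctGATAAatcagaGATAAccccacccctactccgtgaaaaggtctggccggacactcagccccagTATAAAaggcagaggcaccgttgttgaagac

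GATAA stood in both promoters 2 times, and 22.6% of 32851 promoter windows held it at least once and 4.28% at least 2 times. AAGTG was found 2 times in Nppa, beside 40.7% of windows with at least 1 match and 10.2% with at least 2. CATTCC was found once in Nppb on the other strand, beside 12.6% of windows. TATAAA was found in Nppa, Nppb and Nppc, beside 7.59% of windows. The receptor and Corin windows held none of these letters. No member held an exact match to the CArG box, CCWWWWWWGG with W for A or T, found in 1.47% of windows. Forms of the CArG box that differ from these letters were not searched. These matches describe the letters only.

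The deposited values are probe intensities on a linear scale, with the same highest value of 25873 on every array and medians of 56.3 to 56.4. The sorted columns differed by at most 0.0064 on the log2 scale from their mean, so the value of a probe is set by its rank on the array. Of the 7 members, 5 lay above the intensity filter of 58.7 and were tested among 11167 genes with limma; Nppc and Npr1 lay below it. The heart label was met by 5 of 6 ventricular markers above the filter, with summed intensities of 80036 to 88677 over the 6 arrays. The other, Tnnt2, had no probe with 1 symbol. The lung markers Sftpc and Scgb1a1 were both below the filter. Xist, the transcript of the silenced X chromosome, was low on transgenic sham (log2 5.41) and wild-type TAC 2 (5.38) whereas the other 4 arrays read 10.36 to 11.03. Kdm4a was at log2 6.45 to 6.75 on all arrays by the probe of highest mean. A probe of like brightness read 6.86 and 6.32 on transgenic TAC, 6.44 and 6.40 on wild-type TAC, 7.03 on transgenic sham and 6.49 on wild-type sham, with transgenic TAC 2 the lowest. The files do not say whether these probes read the transgene. The genotype labels are used as they stand.

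**Figure D1:**
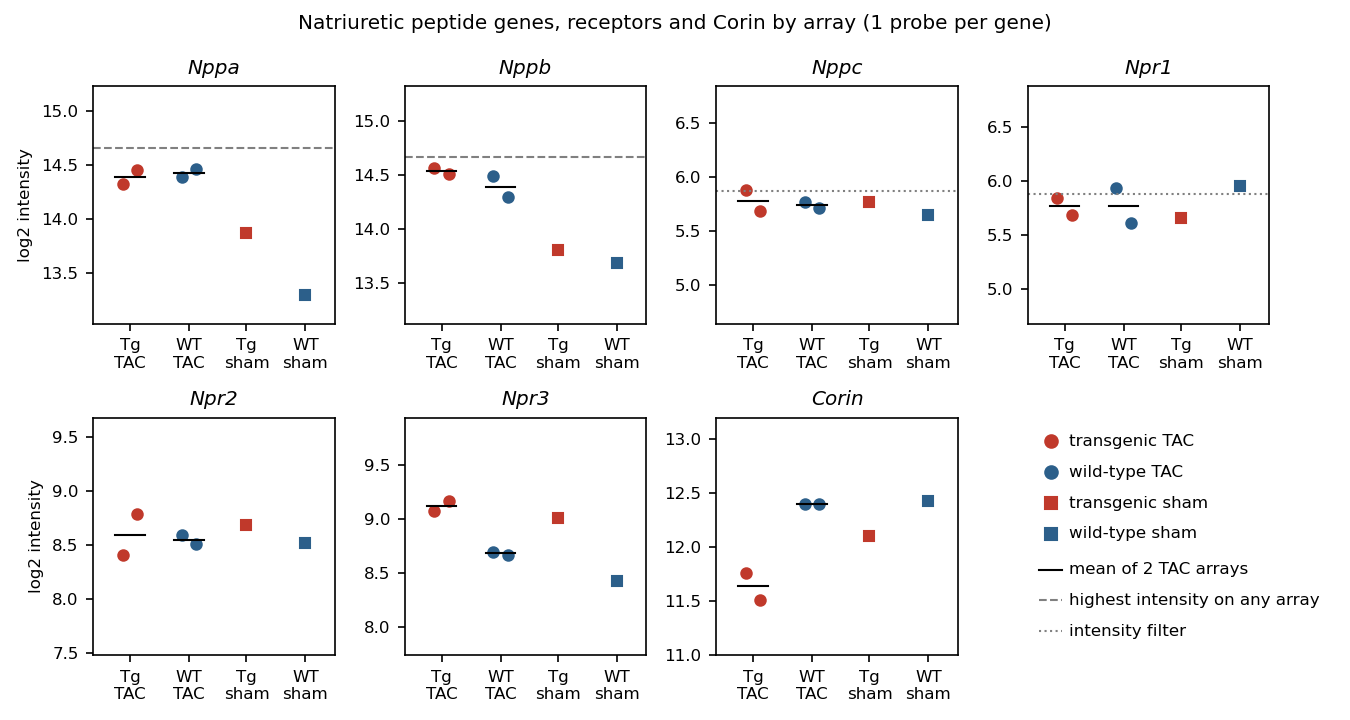
Log2 intensity (y axis) of the 7 members, by the brightest probe of each gene, on the 6 arrays (x axis: transgenic TAC, wild-type TAC, transgenic sham, wild-type sham); each point is 1 array, the bar is the mean of 2 TAC arrays, the dashed line is the highest intensity on any array and the dotted line the intensity filter, and every panel spans the same log2 range. All 4 TAC arrays sit above both sham arrays for Nppa and Nppb, and the 3 transgenic arrays sit below the wild-type arrays for Corin and above them for Npr3.

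Nppa was brighter after TAC on every array. Its intensity was 20529.7 and 22424 on the transgenic TAC arrays, 21409 and 22649.8 on the wild-type TAC arrays, 14944 on transgenic sham and 10090.1 on wild-type sham. The TAC arrays of the genotypes interleaved, and the sham arrays were the 2 lowest, with wild-type sham below transgenic sham by more than the gap within either TAC pair. Over both genotypes the log2 difference of TAC from sham was 0.82 ± 0.13 (SE, 4 against 2 arrays), a 1.77-fold higher intensity, with a limma adjusted p of 0.226. It was sixth by p among all tested genes. In RNA of whole hearts, fewer cells of a type and less RNA per cell cannot be told apart.

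Nppb, the other stretch-released hormone gene, was also brighter on every TAC array than on both sham arrays, with a smaller error of the difference. It stood at 24142 and 23325 on the transgenic TAC arrays, 22914 and 20096 on the wild-type TAC arrays, 14277 on transgenic sham and 13121 on wild-type sham. The order of the groups was transgenic TAC, wild-type TAC, transgenic sham and wild-type sham, and the gap between the TAC groups was smaller than the gap within the wild-type pair, when taken between nearest arrays. The log2 difference of TAC from sham was 0.72 ± 0.09 (4 against 2 arrays, 1.65-fold, adjusted p = 0.101), and Nppb ranked below Acta1 alone by p. None of the 5 tested members passed at an adjusted p of 0.05 in this comparison, in which 1 gene, or 0.00895% of those tested, did. An unadjusted p under 0.05 was found for 2 of the 5, and for 9.26% of all genes. Nppa and Nppb were the 2 members whose TAC arrays all lay above sham, as for 8.39% of tested genes, and no member lay below sham on all 4 TAC arrays, as 8.16% of genes did. Without transgenic TAC 1 both passed, with log2 differences of 0.89 (adjusted p = 0.0231) for Nppa and 0.71 (adjusted p = 0.0209) for Nppb. In that fit 37 genes passed, against 1 with all arrays. With no intensity filter Nppb passed at 0.0152, where 2 genes did. Leaving out any other array gave no call for either gene. The Nppa difference was 0.52 against transgenic sham alone, among transgenic hearts, and 1.13 against wild-type sham alone, among wild-type hearts. With transgenic sham and wild-type TAC 2, the arrays of low Xist, left out, the differences were 1.09 for Nppa and 0.80 for Nppb. That fit sets wild-type TAC 1 alone against wild-type sham alone, so it gives no TAC difference for transgenic hearts.

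Both hormone genes sat close to the top of the scale after TAC. On the transgenic TAC arrays 55 and 22 probes were brighter than Nppa, on the wild-type TAC arrays 40 and 19, on transgenic sham 145 and on wild-type sham 250. For Nppb the counts of brighter probes were 6 and 13 on the transgenic TAC arrays, 17 and 61 on the wild-type TAC arrays, 156 on transgenic sham and 182 on wild-type sham. The brightest Nppb value was 93.3% of the highest intensity and the brightest Nppa value 87.5%. How much this ceiling shortens the differences was not tested.

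**Figure D2:**
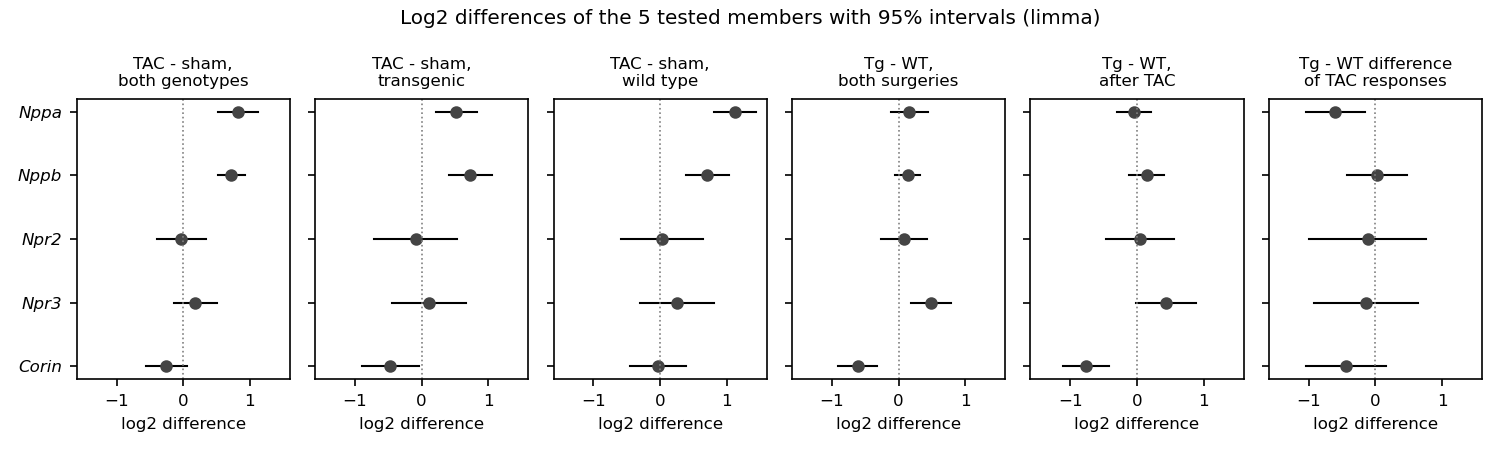
Log2 differences (x axis) of the 5 tested members (y axis) in 6 comparisons, with limma estimates as points and 95% intervals as lines; Tg is transgenic and WT wild type. The TAC intervals of Nppa and Nppb lie above 0 in both genotypes, and those of Corin lie below 0 in both comparisons of transgenic with wild type; none of these differences passed after adjustment over all genes.

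By genotype, the TAC difference of Nppa was 0.52 ± 0.14 in transgenic hearts and 1.13 ± 0.14 in wild-type hearts (each 2 TAC arrays against 1 sham array). The difference between these responses was -0.60 ± 0.19, with a 95% interval of -1.05 to -0.16 before adjustment and an adjusted p above 0.999. It came with a transgenic sham value 1.48-fold that of wild-type sham. These sham arrays also differ in Xist, so the Xist level and genotype cannot be told apart in this ratio or in the difference of responses that uses it. For Nppa after TAC, transgenic minus wild type was -0.04 ± 0.11 and over both surgeries 0.16 ± 0.12 (adjusted p = 0.681). For Nppb the TAC differences were 0.73 ± 0.14 in transgenic hearts and 0.71 ± 0.14 in wild-type hearts, and the difference between them was 0.02 ± 0.20 with an interval of -0.43 to 0.48. For Nppb, transgenic sham stood at 1.09-fold wild-type sham, and over both surgeries transgenic minus wild type was 0.14 ± 0.08 (adjusted p = 0.605). At least log2 1 between the sham arrays was reached by 1.04% of tested genes and by no tested member.

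Within wild type, Nppa had an adjusted p of 0.127 and ranked second by p of 11167 genes. No gene passed there (0%), and 3.56% had an unadjusted p under 0.05. Of the 5 tested members, Nppa, Nppb and Npr3 were higher on both wild-type TAC arrays than on wild-type sham, as were 34.4% of genes, and Corin was lower on both, as were 38.7%. Nppa passed at 0.0121 with no intensity filter, at 0.00909 without transgenic TAC 1 and at 0.00869 without transgenic TAC 2, the log2 difference staying at 1.13, and in the last pair of fits the wild-type TAC arrays are the only pair that gives a spread. With no trend the adjusted p was 0.799, and without either wild-type TAC array it was 1.00. Within transgenic hearts no gene passed either (0%), with 4.86% at an unadjusted p under 0.05. The same 3 members were higher on both transgenic TAC arrays than on transgenic sham, as were 31.1% of genes, and Corin was lower on both, as were 30%. Without transgenic TAC 1, which leaves 1 array against 1 and borrows the spread of the wild-type pair, the differences were 0.59 for Nppa and 0.71 for Nppb. The transgenic sham array is low in Xist and both transgenic TAC arrays are high, so the Xist level and surgery cannot be told apart in this comparison.

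Atrial muscle makes Nppa all the time, so markers of atrial muscle are given beside these results. The summed intensity of the 6 atrial markers was 1452 and 3890.3 on the transgenic TAC arrays, 9047 and 1864 on the wild-type TAC arrays, 1389 on transgenic sham and 918 on wild-type sham. Wild-type TAC 1 stood far above the rest, and all 4 TAC sums lay above both sham sums, on transgenic TAC 1 through Dkk3 (693, against 389 on transgenic sham). On that array Myl4, Myl7 and Sln were lower than on transgenic sham, at 522, 45.4 and 66.0 against 706, 61.7 and 99.8. Sln, the sarcolipin gene of atrial muscle, reached 1451 on wild-type TAC 1 and 164 on wild-type TAC 2. Kcnj3 was lower on all 4 TAC arrays (66.0 to 74.4) than on the sham arrays (89.1 on transgenic, 75.4 on wild type). Of the 6 markers 5 passed the intensity filter, while Bmp10 stayed at 43.2 to 53.2. The fibroblast markers, 7 of 8 above the filter, had sums that were higher on every TAC array. They were 21234 and 25443 on transgenic TAC, 23927 and 18746 on wild-type TAC, 18080.2 on transgenic sham and 16449.9 on wild-type sham. Of the 7, 5 were higher on every TAC array than on both sham arrays, as were 8.39% of tested genes. None of the 7 passed (limma adjusted p of 0.226 or more). The part of either marker list in the Nppa and Nppb differences was not tested. Without wild-type TAC 1 the Nppa difference within wild type was 1.17 and that of Nppb 0.62.

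**Figure D3:**
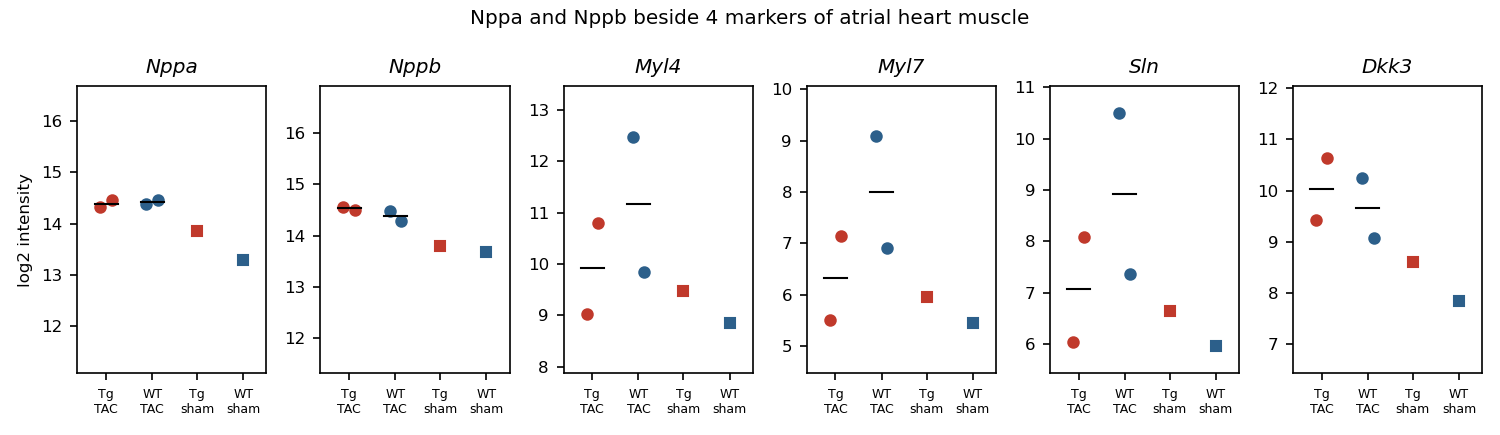
Log2 intensity (y axis, same span in each panel) of Nppa, Nppb and the atrial markers Myl4, Myl7, Sln and Dkk3 on the 6 arrays (x axis: transgenic TAC, wild-type TAC, transgenic sham, wild-type sham); points are arrays and bars are means of 2 TAC arrays. The wild-type TAC arrays lie far apart for Sln (1451 and 164 as intensities), and the TAC arrays of Nppa and Nppb lie close to the top of the intensity scale. The atrial list also holds Kcnj3, lower on every TAC array than on both sham arrays, and Bmp10, below the intensity filter, which are not shown.

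Nppc, the gene of C-type peptide, which is made mostly by endothelium, was not measured above the filter. Its intensity was 58.8 and 51.3 on the transgenic TAC arrays, 54.7 and 52.4 on the wild-type TAC arrays, 54.5 on transgenic sham and 50.3 on wild-type sham. All values lay around the array median, and transgenic TAC 1 alone reached the filter. In a fit with no filter, TAC minus sham was 0.05 ± 0.09 (adjusted p = 0.929). Endothelial markers were present on the same arrays, with 7 of 8 above the filter and sums of 12337 and 17327 on transgenic TAC, 17266 and 17524 on wild-type TAC, 14375 on transgenic sham and 14582 on wild-type sham.

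Npr1, the receptor of both hormones, also lay below the filter by its mean, though wild-type TAC 1 and wild-type sham exceeded it. It was at 57.2 and 51.3 on the transgenic TAC arrays, 60.9 and 48.7 on the wild-type TAC arrays, 50.3 on transgenic sham and 61.8 on wild-type sham. The gap within the wild-type TAC pair was wider than the range of the other 4 arrays, so no order of the groups can be read from this probe. In a fit with no filter, TAC minus sham was -0.04 ± 0.11 (adjusted p = 0.958) and transgenic minus wild type -0.10 ± 0.11 (adjusted p = 0.838).

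Npr2, the receptor of C-type peptide, was measured and showed no order by surgery or genotype. Its intensity was 339 and 441 on the transgenic TAC arrays, 385 and 363 on the wild-type TAC arrays, 411 on transgenic sham and 367 on wild-type sham. The transgenic TAC arrays were the lowest and the highest of the 6. The log2 difference was -0.03 ± 0.16 for TAC from sham (interval -0.40 to 0.34) and 0.09 ± 0.15 for transgenic from wild type over both surgeries (interval -0.26 to 0.43).

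Npr3, the clearance receptor, was brighter in transgenic hearts by its brightest probe. That probe read 537 and 575 on the transgenic TAC arrays, 414 and 406 on the wild-type TAC arrays, 515 on transgenic sham and 344 on wild-type sham. All 3 transgenic arrays lay above all 3 wild-type arrays, as for 7.59% of tested genes, and within each genotype the sham array was the lowest. The log2 difference of transgenic from wild type over both surgeries was 0.49 ± 0.14 (3 against 3 arrays, 1.40-fold, adjusted p = 0.174), and after TAC it was 0.44 ± 0.20 (2 against 2, adjusted p = 0.882). Transgenic sham minus wild-type sham was 0.58, with 1 array each and no test. TAC minus sham over both genotypes was 0.18 ± 0.14 (adjusted p = 0.744). With the arrays of low Xist left out, the genotype difference was 0.42 ± 0.33.

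The other 5 Npr3 probes were dimmer and differed from it. The next in brightness, annotated to the same transcript record as the brightest, read 116 and 96.3 on the transgenic TAC arrays, 97.2 and 87.2 on the wild-type TAC arrays, 98.5 on transgenic sham and 95.1 on wild-type sham, so the genotypes overlapped. Its difference between genotypes was 0.15 ± 0.12, beside 0.31 ± 0.13 and 0.11 ± 0.10 for the other probes above the filter, of which the dimmest did not overlap between genotypes. The last 2 probes were below the filter, at 42.2 to 51.6 over all arrays. The genotype difference was positive for the 4 probes above the filter and negative for the 2 below it, and for TAC against sham the 4 probes split into 2 positive and 2 negative differences.

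**Figure D4:**
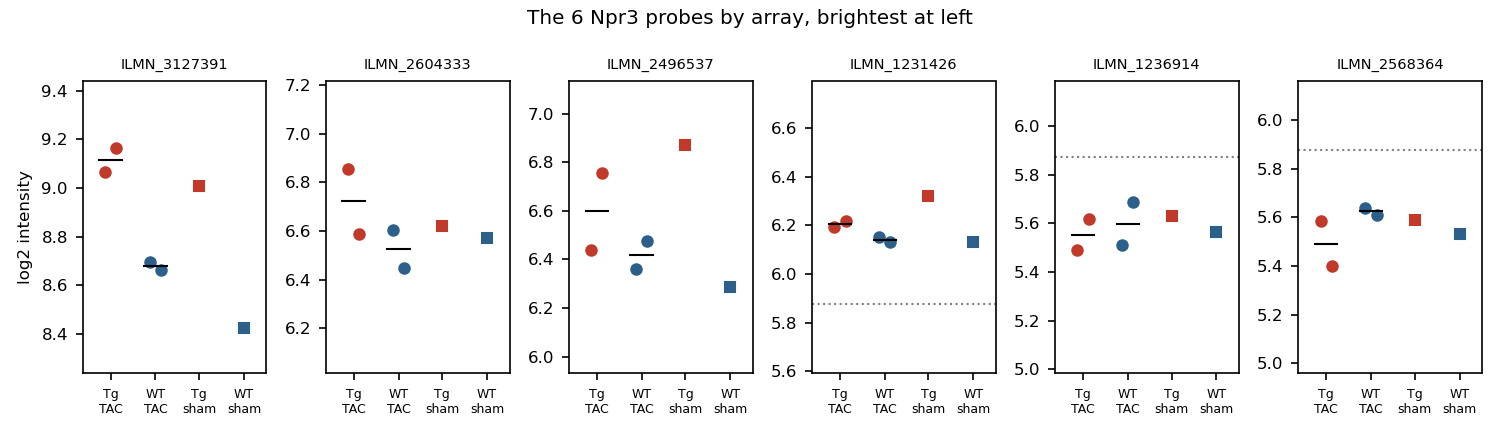
Log2 intensity (y axis, same span in each panel) of the 6 Npr3 probes, brightest at left, on the 6 arrays (x axis: transgenic TAC, wild-type TAC, transgenic sham, wild-type sham); points are arrays, bars are means of 2 TAC arrays and the dotted line is the intensity filter. The brightest probe separates transgenic from wild-type arrays, while the next one overlaps between them and the last 2 stay below the filter.

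Corin, the protease that activates the Nppa precursor, was lower in transgenic hearts, and lowest after TAC. It stood at 3464 and 2906 on the transgenic TAC arrays, 5375 and 5381 on the wild-type TAC arrays, 4399 on transgenic sham and 5498 on wild-type sham. All 3 transgenic arrays lay below all 3 wild-type arrays, as for 8.55% of tested genes. The 3 wild-type arrays spanned a narrow range whatever the surgery, and both transgenic TAC arrays lay below transgenic sham. The log2 difference of transgenic from wild type was -0.61 ± 0.13 over both surgeries (3 against 3 arrays, 0.65-fold, adjusted p = 0.0767) and -0.76 ± 0.15 after TAC (2 against 2, 0.59-fold, adjusted p = 0.160). It ranked 141st and 65th by p of 11167 genes in these comparisons. With the arrays of low Xist left out, the difference was -0.76 ± 0.25. TAC minus sham over both genotypes was -0.25 ± 0.14 (adjusted p = 0.624).

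None of the 5 tested members passed between genotypes, over both surgeries, where 0.949% of genes did, or after TAC, where 0.206% did. An unadjusted p under 0.05 was found for Npr3 and Corin over both surgeries, beside 11.5% of genes, and for Corin after TAC, beside 5.76%. After TAC alone, Nppb and Npr3 were higher on both transgenic arrays than on both wild-type arrays, as were 15.5% of genes, and Corin was lower, as were 16.8%. Corin passed without transgenic TAC 2 over both surgeries (-0.50, adjusted p = 0.0400), a fit in which 473 genes passed, against 106 with all arrays. After TAC and without transgenic TAC 1, which leaves 1 transgenic array, the Corin difference was -0.89. The TAC difference of Corin was -0.47 ± 0.19 in transgenic hearts and -0.03 ± 0.19 in wild-type hearts, and the difference of these was -0.44 ± 0.26 (interval -1.04 to 0.16, adjusted p above 0.999). No gene passed for the difference of TAC responses (0%), and 1.64% had an unadjusted p under 0.05. The ventricular markers summed to 80036 and 88677 on transgenic TAC, 84527 and 82865 on wild-type TAC, 81562 on transgenic sham and 86019 on wild-type sham. Most of that sum comes from Myl2, Myl3, Actn2 and Myh6, which lie near the top of the scale. Ryr2, the calcium release channel gene, was further from it. It read 3344 and 3288 on transgenic TAC, 4142 and 4427 on wild-type TAC, 4832 on transgenic sham and 5227 on wild-type sham. Both transgenic TAC arrays were the lowest, as for Corin, but unlike Corin, Ryr2 was lower on every TAC array than on both sham arrays. Of the 5 tested ventricular markers, 2 were higher and 3 lower in transgenic hearts over both surgeries (median -0.01). The 6 smooth muscle and pericyte markers, of which 5 passed the filter, had sums of 5121 and 8041 on transgenic TAC, 20651 and 12674 on wild-type TAC, 6799 on transgenic sham and 12471 on wild-type sham. The gap between genotypes lay in Acta2, which fell by 1.67 ± 0.23 in transgenic hearts (adjusted p = 0.0118), and without it the sums were 2420.0 and 4546 on transgenic TAC, 5284 and 3688 on wild-type TAC, 3061 on transgenic sham and 4226 on wild-type sham, which overlap. Tagln did not overlap between genotypes either, while Myh11, Rgs5 and Cspg4 did. Their part in the Npr3 and Corin differences was not tested.

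Around the members, 44 genes of peptide processing, cyclic GMP and Nppa or Nppb transcription were followed, of which 37 passed the filter. None of the 37 passed the test for TAC against sham over both genotypes. Between genotypes 2 of the 37 fell in transgenic hearts over both surgeries and none rose, beside 0.949% of all tested genes called, and 1 fell after TAC, beside 0.206%. Over all tested genes 48.6% were higher after TAC and 47.6% higher in transgenic hearts, both with a median log2 difference of -0.01.

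The 5 tested enzymes of peptide processing and clearance all lay lower after TAC (median -0.14). Mme, or neprilysin, was at -0.45 ± 0.15, Dpp4 at -0.31 ± 0.18 and Ide at -0.14 ± 0.13. Furin at -0.06 ± 0.13 and Pcsk6 at -0.07 ± 0.13 differed by less than their SE. The limma adjusted p was 0.420 or more. Furin read 2037 and 2351 on the transgenic TAC arrays, 3294 and 2768 on the wild-type TAC arrays, 2295 on transgenic sham and 3140.0 on wild-type sham. As with Corin, the 3 transgenic arrays all lay below the wild-type arrays, at -0.46 ± 0.12 without passing (adjusted p = 0.154). Between genotypes 2 of these 5 enzymes were higher and 3 lower in transgenic hearts (median -0.19), among them Ide, an insulin- and peptide-degrading protease, at 0.31 ± 0.13 and Mme at -0.33 ± 0.14. Ostn, whose peptide binds Npr3, lay below the filter.

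Of 12 tested genes that make, sense or break down cyclic GMP, 9 were higher and 3 lower after TAC (median 0.09), with Nos3 at 0.32 ± 0.21, Prkg1 at 0.24 ± 0.15 and Pde3b at 0.16 ± 0.10. Between genotypes 3 were higher and 9 lower in transgenic hearts (median -0.13). Prkg1, the cyclic GMP kinase of heart, smooth muscle and platelets, fell by 0.79 ± 0.14 on the log2 scale (adjusted p = 0.0377). It stood at 469.7 and 556 on the transgenic TAC arrays, 846 and 878 on the wild-type TAC arrays, 420.1 on transgenic sham and 755 on wild-type sham. The groups did not overlap, yet the call was lost without any 1 array other than transgenic TAC 2 (adjusted p from 0.0507 to 0.379) and by the median over its probes (-0.36, adjusted p = 0.263). The next probe in brightness read 134 and 147 on transgenic TAC, 223 and 230 on wild-type TAC, 132 on transgenic sham and 204 on wild-type sham. The remaining probes read 46.7 to 69.1, around the intensity filter, and the brighter of them overlapped between genotypes. With Xist as a covariate the difference was -0.79 with an adjusted p of 0.105. With the arrays of low Xist left out it was -0.73, with both transgenic TAC arrays set against wild-type TAC 1 alone. Of the smooth muscle and pericyte markers given with Corin, Acta2 and Tagln were lower on all 3 transgenic arrays and the other 3 tested overlapped; their part in the result was not tested. Pde1c, a phosphodiesterase of both cyclic nucleotides, was at 0.74 ± 0.17 (adjusted p = 0.0994) and Gucy1a1, a subunit of the nitric oxide receptor, at -0.34 ± 0.15.

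Among 8 tested G proteins and effectors of the cyclic GMP kinase, 1 was higher and 7 were lower after TAC (median -0.11). Pln, the phospholamban gene, was at -0.46 ± 0.14, Rgs2, a brake on Gq signalling, at -0.34 ± 0.09 and the channel gene Trpc6 at -0.18 ± 0.10, with adjusted p of 0.350 or more. Between genotypes 3 were higher and 5 lower (median -0.07), with Pln at 0.37 ± 0.13, Rgs4 at -0.37 ± 0.13 and Rgs2 at -0.15 ± 0.09.

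Of 12 tested transcription factors described at the Nppa or Nppb promoter, 5 were higher and 7 lower after TAC (median -0.02), with Nfatc4 at 0.57 ± 0.19, Hopx at -0.45 ± 0.16 and Tbx20 at 0.41 ± 0.17 (adjusted p of 0.423 or more). Between genotypes 4 were higher and 8 lower (median -0.05). Hopx, a homeodomain protein that restrains SRF, fell by 1.72 ± 0.15 (adjusted p = 0.00134), and after TAC alone it fell by 1.59 ± 0.19 (adjusted p = 0.0200). It read 1787 and 1415 on the transgenic TAC arrays, 4281 and 5370.1 on the wild-type TAC arrays, 1899 on transgenic sham and 7457 on wild-type sham. By the median over its 2 probes, of which the dimmer lies below the filter, the difference was -0.79 over both surgeries (adjusted p = 0.0706) and -0.66 after TAC (0.646). After TAC the call was also lost when wild-type TAC 1 (-1.76, 0.229) or wild-type TAC 2 (-1.43, 0.550) was left out, and with the arrays of low Xist left out (-1.43, 0.515). It was lost as well in a fit with no trend (-1.59, 0.110) and in a fit that held Xist as a covariate (-1.40, 0.0585). Myocd, the SRF cofactor myocardin, was at -0.73 ± 0.16 (adjusted p = 0.0989) and Tead1 at 0.42 ± 0.14 (0.270). Srf itself was at -0.06 ± 0.12 and Gata4 at 0.23 ± 0.13.

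**Figure D5:**
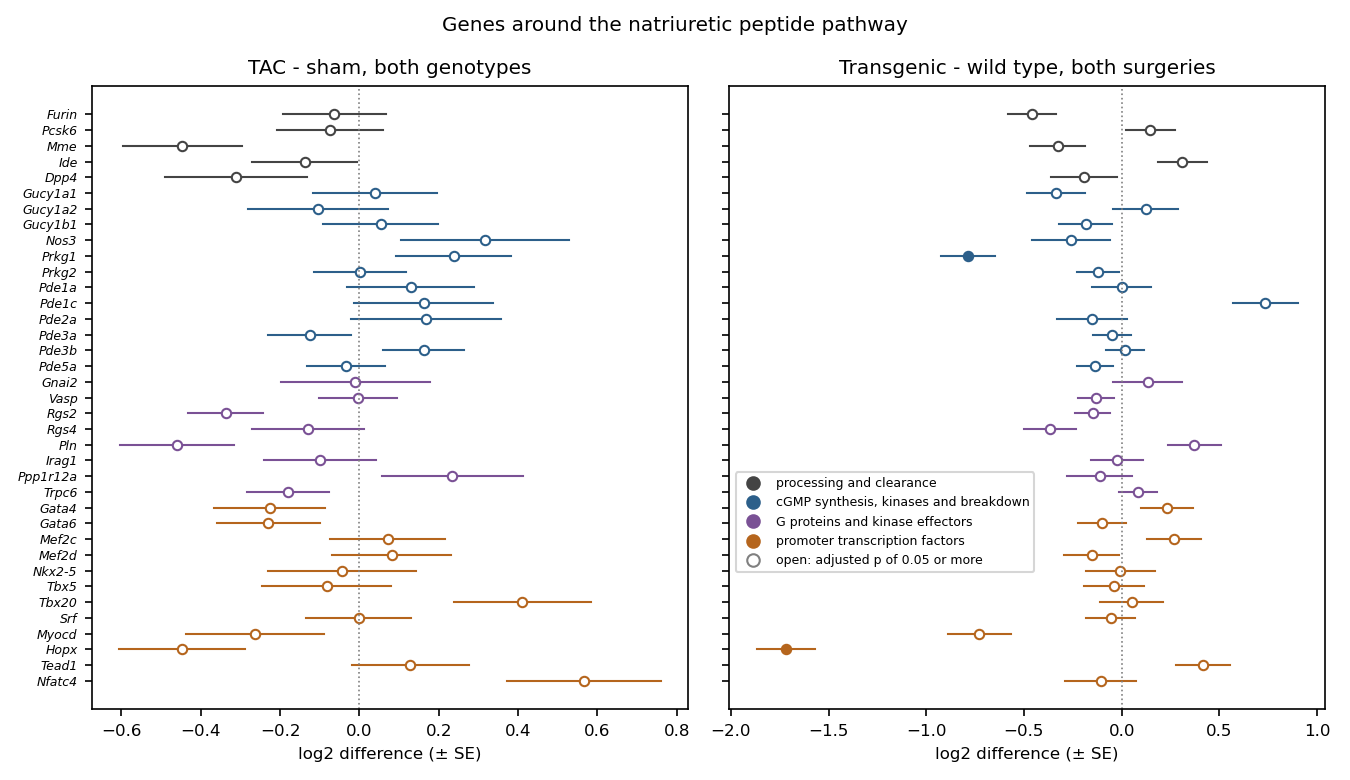
Log2 differences with SE (x axis) of the 37 tested genes around the natriuretic peptide system (y axis), for TAC minus sham over both genotypes (left) and transgenic minus wild type over both surgeries (right); colours give the 4 lists and filled points have an adjusted p under 0.05. No point is filled at left, and Prkg1 and Hopx are filled at right, both lower in transgenic hearts.

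Nppb and Nppa lie next to each other on chromosome 4. Of the genes around them 7 were tested, namely Fv1, Mfn2, Plod1 and 2510039O18Rik before Nppb and Clcn6, Agtrap and Draxin after Nppa. Their TAC differences over both genotypes lay between -0.22 (Agtrap) and 0.02 (Plod1), against 0.82 for Nppa and 0.72 for Nppb. Between genotypes Agtrap was at 0.63 ± 0.15 (adjusted p = 0.110), and the other 6 lay between -0.23 and 0.16. Agtrap read 813 and 882 on the transgenic TAC arrays, 537 and 653 on the wild-type TAC arrays, 1111 on transgenic sham and 616 on wild-type sham.

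The genes whose log2 intensity followed Nppa most closely over the 6 arrays, among 1677 tested genes with an SD of at least 0.3, were Dusp26 (Pearson r = 0.983), Uck2 (0.961), B4galnt1 (0.949), Gask1b (0.940) and Slc2a10 (0.937). Those closest to Nppb were Ccdc68 (0.977), Uck2 (0.972), Mgp (0.966), Plp2 (0.965) and Col4a3 (0.950). Dusp26, a phosphatase gene, read 398 and 466 on the transgenic TAC arrays, 503 and 501 on the wild-type TAC arrays, 312 on transgenic sham and 211 on wild-type sham. It thus shared with Nppa the step between the sham arrays, and Uck2, a uridine kinase gene, was the 1 gene on both lists. By the order of the arrays alone, Uck2 had a Spearman rho of 0.43 with Nppa and 0.94 with Nppb. These r values describe 6 arrays that share a TAC to sham step, and carry no test.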

How the data were processed

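RNA of whole hearts was hybridised to Illumina arrays after Trizol extraction, DNase treatment and biotin labelling, per the labels' protocols. The deposited values are probe intensities on a linear scale; how the authors scaled them or corrected for background is not named by the labels, and the equal sorted columns show arrays brought to 1 distribution. That normalization was kept, 12 values under 32 were set to 32, and log2 was taken without subtracting background, so folds of dim genes are understated. Probes were named from the platform annotation: 34885 had 1 symbol, 18 several and 10378 none. RefSeq's GRCm38.p6 gene table gave current symbols through the gene identifier, and neighbouring genes. The brightest probe stood for each of 19057 genes. Those above the 50th percentile of probes with 1 symbol, 11167 genes, were tested with limma 3.58.1 under R 4.3.3 (lmFit, then eBayes with its trend option). Adjustment was by Benjamini-Hochberg over all tested genes, at a threshold of 0.05. A model of surgery plus genotype gave the comparisons over both genotypes or surgeries; a model of 4 groups gave the others, in which the lone sham arrays take their spread from the TAC pairs. Errors are SE of these fits. The steps were tested on simulated data. The sham arrays were compared by size only.

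The members and gene lists were chosen with earlier results of these data known. All members are named. Of each list, members past the test and the 3 with the smallest p over both genotypes and over both surgeries are named. Srf, Gata4, Pcsk6 and Ostn are named besides, chosen after their values were seen. Likeness took the 5 highest r. The TAC numbers 1 and 2 do not pair arrays by the labels, and over tested genes the TAC 1 minus TAC 2 differences of the genotypes correlated at -0.03. Alternatives were no filter, the median over probes, no trend, and subtraction of the 5th percentile of each array with a floor of 16. Others were each array left out, Xist as a covariate, a replicate block and single probes. Leaving out both arrays of low Xist was added after seeing the data. It leaves wild-type TAC 1 against wild-type sham for surgery, and both transgenic TAC arrays against wild-type TAC 1 for genotype.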

Additional observations from a re-analysis of the deposited data

Results flagged for a closer look

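Npr1 lay on opposite sides of sham in the genotypes, which is a sign pattern only: the transgenic TAC arrays (57.2 and 51.3) lay above transgenic sham (50.3), and the wild-type TAC arrays (60.9 and 48.7) lay below wild-type sham (61.8). The log2 difference between the responses was 0.29 ± 0.22 with no intensity filter (adjusted p above 0.999). The probe lies below the filter, with values around the array median of 56.3 to 56.4. No group of arrays was large enough to look for outlying arrays.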

How the results depend on the processing

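Over the repeats of the member comparisons, 341 kept direction and side of the threshold, 12 gained a call, 25 changed sign and none lost a call, since no member had one. Gains outside single-array omissions were Nppb for TAC in both genotypes with no filter or every probe fitted (0.72 each, adjusted p 0.0152 and 0.0124) and Nppa for TAC in wild type under the same settings (1.13 each, 0.0121 and 0.0286). Sign changes were all in differences that did not pass. For TAC in both genotypes Npr2 was 0.068 without both arrays of low Xist, and Npr3 was -0.024 by the median over probes and -0.070 and -0.053 by other probes; other Npr3 probes gave -0.047 in wild type, -0.27 and -0.12 in transgenic hearts (median over probes -0.11) and 0.15 for the difference of responses. Between genotypes after TAC, Nppa was 0.0032 without both arrays of low Xist and Npr2 -0.024 with Xist as a covariate, which also gave -0.25 for Nppb in the difference of responses. The causes were not tested.

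Leaving out each array gave, for TAC in both genotypes, 0.52 to 1.13 (Nppa), 0.68 to 0.76 (Nppb), -0.11 to 0.059 (Npr2), 0.11 to 0.25 (Npr3) and -0.47 to -0.032 (Corin); between genotypes, -0.037 to 0.26 (Nppa), 0.081 to 0.19 (Nppb), -0.012 to 0.21 (Npr2) and -0.76 to -0.50 (Corin); in wild type, 1.09 to 1.17 (Nppa) and -0.015 to 0.068 (Npr2); in transgenic hearts, 0.46 to 0.59 (Nppa), 0.71 to 0.76 (Nppb) and -0.28 to 0.10 (Npr2); after TAC, -0.10 to 0.026 (Nppa), -0.14 to 0.24 (Npr2) and -0.89 to -0.63 (Corin); for the difference of responses, -0.071 to 0.12 (Nppb) and -0.31 to 0.075 (Npr2).

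Counts of genes past the threshold moved more. For TAC in both genotypes 1 gene passed, against 2 with no filter, 0 with no trend, 0 with Xist, 0 without both arrays of low Xist and 0 to 37 without single arrays. Between genotypes 106 passed, against 51 by the median over probes, 54 with Xist, 0 without both low-Xist arrays and 24 to 473 without single arrays. In wild type the count was 0, against 5 with no filter, 10 with Xist and 0 to 11 without single arrays; in transgenic hearts 0, against 1 with no filter and 0 to 239. After TAC 23 genes passed, against 38 with no filter, 5 by the median over probes, 8 with no trend, 0 without both low-Xist arrays and 0 to 189 without single arrays. The replicate block gave 61 there; titles alone share the numbers. The difference of responses had 0, against 5 with Xist and 0 to 1. Hopx was called in all settings over both surgeries except the median over probes and without both low-Xist arrays (adjusted p 0.515). With 1 array a sham group, the arrays' number limits precision.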
